A study of Homo sapiens with 30 samples.

Results

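Delta47 myeloma cells in which FOXM1 had been knocked out and then returned on a vector were set against unedited Delta47 cells, to find which differences remain when FOXM1 is near its normal level. The comparison uses 6 of the 30 samples of the series, the 3 libraries titled KO2R and the 3 titled WT, chosen by those titles. Delta47 is a human multiple myeloma cell line, a tumour of antibody-secreting plasma cells. The study knocked FOXM1 out of the Delta47 and OPM2 lines and returned it to one clone of each, and it measured polyadenylated RNA by sequencing. KO2R cells are Delta47 clone KO2, edited in FOXM1 with Cas9, which then took up a lentiviral vector encoding the FOXM1c isoform and were sorted for GFP. KO2 and KO1 are the same kind of edited cells without a vector, each grown from 1 cell, and WT cells had neither editing nor a vector. KO2R cells therefore differ from WT cells by editing, cloning, vector and sort together, and these cannot be told apart in this comparison. The sources used here name neither the promoter of the vector nor the guide that made each clone, and a Delta47 group with an empty vector was not analysed here. KO2 and KO1 values are given beside KO2R and WT because KO2 is the parent of KO2R and KO1 is another clone of the line.

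FOXM1 is a forkhead transcription factor made chiefly in dividing cells. It joins MYBL2 and the MuvB complex at promoters of genes needed in G2 and mitosis, among them PLK1, CCNB1 and CDC25B, and high FOXM1 is known from aggressive myeloma. In the promoters of many such genes MuvB contacts a short element with the letters TTTGAA, often close to a CCAAT box that binds NF-Y.

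The edited cells were made with guide RNAs against exon 2 of FOXM1, shown because they fix which transcripts can carry an edit. Guides 1 and 2 overlap by the 19 bases in capitals and are shifted by 1 base, and guide 3 lies on the other strand.
Guide 1: uUGAGAAUCAGUGGCCGACG
Guide 2: UGAGAAUCAGUGGCCGACGg
Guide 3: uaaugaaaacuagcccccgu
Matched to the GRCh38 transcripts of GENCODE 29, guide 1 reads the antisense strand of FOXM1 at chr12:2874444-2874463, guide 2 the antisense strand at chr12:2874445-2874464 and guide 3 the sense strand at chr12:2874461-2874480. All 3 sites lie inside exon 2 of the same 4 FOXM1 transcripts, next to the PAMs GGG, GGG and CGG.

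FOXM1 transcript was slightly higher in KO2R than in WT cells. The authors' expression value, whose unit is not stated in the deposited Delta47 table, was 94.4, 102 and 101 in the KO2R libraries, 47.1, 46.1 and 45.4 in KO2, 46.1, 49.8 and 47.97 in KO1 and 87.1, 88.8 and 90.8 in WT. All KO2R libraries were above all WT libraries, and the KO2 and KO1 libraries were far below both. The KO2R mean was 99.4 ± 4.37 and the WT mean 88.9 ± 1.88 (SD, n = 3 each), so that KO2R stood at 112% of WT, KO2 at 51.9% and KO1 at 53.9%. On the log2(value + 1) scale used throughout, KO2R was above WT by 0.16 ± 0.04 (SE, limma-trend, Benjamini-Hochberg adjusted p = 0.00209). Reads from the vector and from the edited gene both count here, so the level does not measure FOXM1 protein.

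Across all genes, small differences between KO2R and WT were the rule and large ones were few. Of 17286 genes in the table, 10825 had a value of 1 or more in at least 3 of the 6 libraries and were tested, and 7535 passed an adjusted p below 0.05 (69.6%), 3721 higher in KO2R (34.4%) and 3814 lower (35.2%). The median absolute difference of these genes was 0.35 and 2120 of them (28.1%) differed by under 0.25. Differences of at least 2-fold on this scale were called for 220 genes (2.03%), 85 higher (0.785%) and 135 lower (1.25%). Of these, 24 of the higher genes reached the value of 1 only in KO2R libraries and 35 of the lower ones only in WT libraries; such a gene had to differ to be tested. The libraries of KO2R and WT did not overlap at 7553 genes (69.8%). By the same rules KO2R differed from its parent KO2 at 6778 genes (62.6%), 26 of them by 2-fold (0.24%), and KO2 from WT at 4743 (43.8%), 153 of them by 2-fold (1.41%); these comparisons share libraries with the main one and are given only side by side. The labels do not say that the libraries of a group came from separate cultures, so p-values measure the spread between libraries, which may be technical.

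A trend with transcript length ran through the comparison. Spearman's rho across genes between the length of the longest GENCODE transcript and the difference was −0.423 for KO2R against WT, −0.0635 for KO2 against WT and −0.373 for KO1 against WT, over the 10737 tested genes with a length. In 5 equal bins of genes by transcript length, shortest to longest, the median difference of KO2R from WT was 0.25, 0.08, −0.02, −0.10 and −0.22. The medians of KO2 against WT were all between 0.02 and 0.07. Values after removal of this trend in each library are therefore given beside results that it touches; with it removed, 7240 genes passed (66.9%), 33.6% of tested genes higher and 33.3% lower, 5944 of them in the direction found before and 72 in the opposite direction. All 220 of the 2-fold genes still passed in the same direction and 153 of them still differed by 2-fold, among 175 such genes then called (1.62%). The cause of the trend was not tested.

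**Figure D1:**
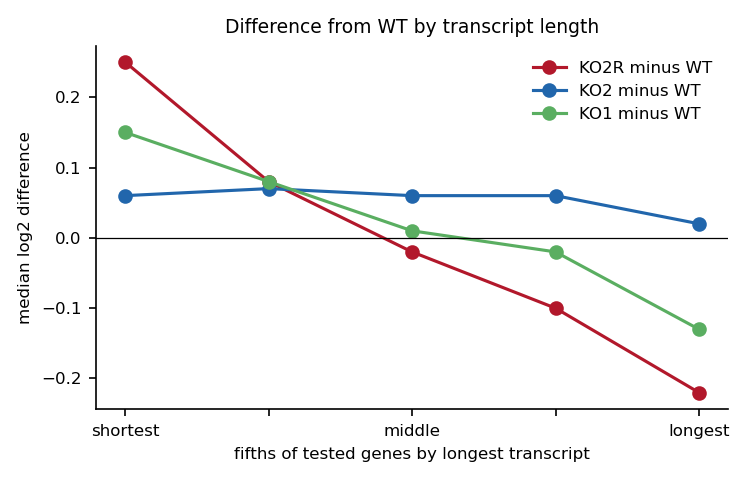
Median log2(value + 1) difference from WT (y axis) in 5 equal bins of the tested genes, ordered by the longest transcript of each gene (x axis), for KO2R, KO2 and KO1. The KO2R line runs downwards between 0.25 in the bin of shortest and −0.22 in the bin of longest transcripts, while the KO2 line stays between 0.02 and 0.07.

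Among the genes of G2 and mitosis, CDC25B and PLK1 had come back near the unedited level in KO2R, on opposite sides of it. CDC25B, a phosphatase that activates cyclin-dependent kinase 1, had 158, 152 and 155 in KO2R, 72.7, 70.6 and 72.8 in KO2, 73.8, 79.3 and 73.5 in KO1 and 132, 139 and 135 in WT. Every KO2R library was above every WT library and both were well above the clones without a vector. The difference of KO2R from WT was 0.20 ± 0.04 (adjusted p = 0.000131); with quantile scaling it was 0.06 and did not pass (adjusted p = 0.208). PLK1, a kinase of mitotic entry and spindle assembly, had 151, 149 and 138 in KO2R, 87.8, 86.8 and 88.7 in KO2, 88.8, 89.7 and 82.4 in KO1 and 167, 173 and 176 in WT. Here KO2R lay between the clones and WT with no overlap, below WT with a difference of −0.24 ± 0.04 (adjusted p = 7.6e-05).

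Cyclin B1 and survivin transcripts were above the unedited level. CCNB1, the cyclin of mitotic entry, had 125, 117 and 133 in KO2R, 60.8, 65.7 and 62.5 in KO2, 62.1, 68.95 and 61.2 in KO1 and 95.6, 95.1 and 95.5 in WT. KO2R was the highest group and the clones without a vector the lowest, and KO2R exceeded WT by 0.38 ± 0.05 (adjusted p = 2.91e-06). BIRC5, which encodes survivin, a subunit of the chromosomal passenger complex and an inhibitor of apoptosis, had 93.5, 94.1 and 95.1 in KO2R, 77.5, 76.7 and 80.4 in KO2, 80.2, 78.6 and 82.2 in KO1 and 60.8, 60.7 and 61.4 in WT. All edited groups were above WT and KO2R was the furthest above it, by 0.62 ± 0.03 (adjusted p = 7.81e-11).

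Other genes of the class stayed below WT with FOXM1 back. MKI67, the proliferation marker Ki-67, had 23.6, 23.9 and 23.8 in KO2R, 37, 34.4 and 34.03 in KO2, 25.1, 25.3 and 24.98 in KO1 and 46.8, 44.9 and 41.5 in WT. KO2R was the lowest of the groups, below WT with a difference of −0.87 ± 0.05 (adjusted p = 7.85e-11; −0.56 with the length trend removed). KIF20A, a kinesin of cytokinesis, had 24.6, 25.8 and 25.3 in KO2R, 24.6, 22.8 and 23.3 in KO2, 24.9, 24.1 and 24.8 in KO1 and 36.96, 36.97 and 36.3 in WT. The edited groups were alike and all below WT, KO2R with a difference of −0.53 ± 0.04 (adjusted p = 6.53e-09).

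Over the whole list of 82 tested genes of G2 and mitosis, 28 were higher in KO2R and 37 lower, with a median difference of −0.07. All tested genes had 34.4% higher, 35.2% lower and a median of −0.01, so the share higher was near that of all genes. With the length trend removed the counts of the list were 22 and 43 and the median −0.11. CKS2, a subunit of cyclin-dependent kinases, was the one member that differed by 2-fold. It had 259.6, 262 and 248 in KO2R, 149.5, 154 and 167 in KO2, 165, 159.9 and 163 in KO1 and 118, 128 and 124 in WT, a difference of 1.05 ± 0.04 (adjusted p = 3.08e-12; 0.64 with the length trend removed). KO2R was above the other groups, which were closer to each other. MYBL2, the partner of FOXM1 at these promoters, differed by −0.03 ± 0.03 (adjusted p = 0.453) and CCNA2, cyclin A2, by −0.01 ± 0.05 (adjusted p = 0.825); MYBL2 was lower by 0.22 with quantile scaling (adjusted p = 2.73e-05). The G1/S and DNA replication list of 56 genes had 14 higher and 23 lower, with a median of −0.03; with the length trend removed 9 were higher and 28 lower, with a median of −0.13.

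**Figure D2:**
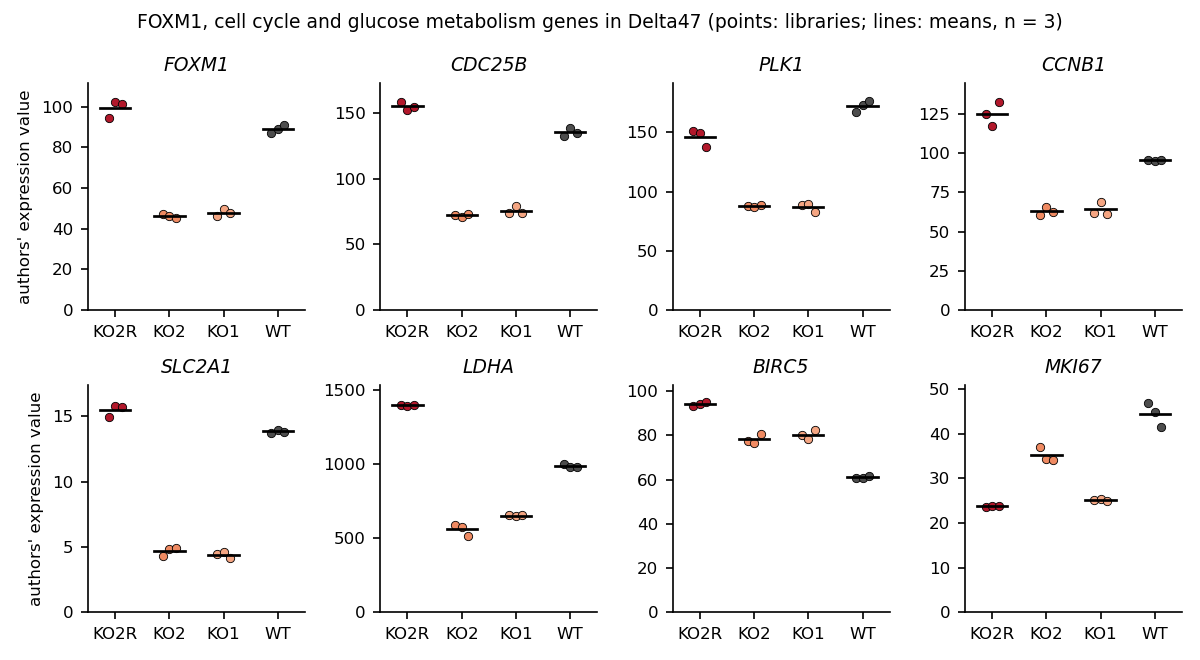
Authors' expression value (y axis, unit not stated in the deposited table) of 8 cell cycle and glucose metabolism genes in the 3 libraries each of KO2R, KO2, KO1 and WT (points; lines are group means). FOXM1, CDC25B, PLK1 and SLC2A1 lie near WT in KO2R and far below it in KO2 and KO1, while BIRC5 and MKI67 in KO2R lie further from WT than in the clones.

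The promoters of PLK1 and CCNB1 are shown as a pair that ended on opposite sides of WT. Each is the RefSeq sequence of 250 bases before to 50 after the start of the gene (GRCh38.p14, plus strand), with TTTGAA and CCAAT, searched on both strands, in capitals.
PLK1, chr16:23678639-23678938: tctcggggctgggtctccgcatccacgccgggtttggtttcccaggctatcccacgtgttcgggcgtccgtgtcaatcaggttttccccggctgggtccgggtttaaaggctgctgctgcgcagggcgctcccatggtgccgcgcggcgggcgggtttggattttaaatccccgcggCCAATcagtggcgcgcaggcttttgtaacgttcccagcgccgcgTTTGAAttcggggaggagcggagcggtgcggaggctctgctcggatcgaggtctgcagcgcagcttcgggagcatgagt
CCNB1, chr5:69166900-69167199: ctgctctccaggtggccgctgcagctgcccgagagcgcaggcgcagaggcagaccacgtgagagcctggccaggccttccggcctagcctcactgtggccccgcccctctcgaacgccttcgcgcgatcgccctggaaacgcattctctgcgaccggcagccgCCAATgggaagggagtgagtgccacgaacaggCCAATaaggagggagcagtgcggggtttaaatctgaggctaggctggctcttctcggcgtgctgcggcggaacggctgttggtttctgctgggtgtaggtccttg
The PLK1 window holds TTTGAA 29 bases before the start and CCAAT 73 bases before it, and the CCNB1 window holds CCAAT 87 and 55 bases before the start and no TTTGAA. Of the 69 list members with a promoter in the table, 46 held TTTGAA (66.7%), against 849 of 8935 tested genes (9.5%). CCAAT stood in 51 of the 69 (73.9%), against 37.8% of tested genes, and both motifs in 38 (55.1%), against 4.22%. The 46 members with TTTGAA had a median difference of KO2R from WT of −0.21, with 12 higher and 25 lower. The 23 without it had a median of 0.00, with 10 higher and 7 lower. Over all tested genes 34.4% were higher and 35.2% lower. With TTTGAA the medians of KO2 and KO1 against WT were −0.03 and −0.09, and without it 0.00 and −0.03. The length trend was not removed from these values, and an effect of the motif was not tested. The list was made of targets of FOXM1, MYBL2 and MuvB. A high share with TTTGAA can follow from that choice and is not a result of these data. These counts describe letters in a window, and no binding was measured.

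SLC2A1, a gene of glucose uptake, was near the unedited level in KO2R. The gene, which encodes the glucose transporter GLUT1, had 14.9, 15.8 and 15.7 in KO2R, 4.28, 4.87 and 4.95 in KO2, 4.47, 4.62 and 4.16 in KO1 and 13.8, 13.97 and 13.8 in WT. KO2R was just above WT and both were far above the clones without a vector. The difference from WT was 0.15 ± 0.06 (adjusted p = 0.0289), and it no longer passed without KO2R replicate 2 or 3 or without any one of the WT replicates (adjusted p between 0.0535 and 0.0856). SLC2A4, which encodes the insulin-responsive transporter GLUT4, had 13.2, 13.5 and 13.2 in KO2R, 3.59, 3.37 and 3.17 in KO2, 3.89, 3.39 and 3.81 in KO1 and 12.1, 11.99 and 12.2 in WT. Again the clones without a vector were low. SLC2A4 was picked for a KO2R level within 0.25 of WT, so its difference of 0.12 is a description with no test.

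LDHA went further. This gene of lactate dehydrogenase A, which turns pyruvate into lactate, had 1402, 1391 and 1403 in KO2R, 588, 579 and 518 in KO2, 656, 648 and 657 in KO1 and 1004, 979 and 982 in WT. KO2R was the highest group, above WT by 0.50 ± 0.04 (adjusted p = 1.1e-08). HK2, the hexokinase of fast-growing cells, had 43.4, 45.8 and 16.2 in KO2R, 23.3, 22.1 and 22.1 in KO2, 17.1, 16.8 and 18.1 in KO1 and 42.6, 42.03 and 40.6 in WT. KO2R replicate 3 stood apart at the level of the clones, and the difference from WT did not pass (−0.38 ± 0.24, adjusted p = 0.167). Without that library it was 0.09 (adjusted p = 0.0934), and without replicate 1 or 2 of KO2R it was −0.59 (adjusted p = 0.0454) or −0.63 (adjusted p = 0.0256).

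Of the 22 tested genes of the glycolysis list, 15 were higher in KO2R than in WT and 1 was lower, with a median of 0.18. The shares over all tested genes were 34.4% higher and 35.2% lower. With the length trend removed 13 of the list were higher and the median was 0.12. Quantile scaling left 9 higher, 4 lower and a median of 0.02. The 2-fold members were ALDOC, an aldolase, and SLC16A3, the lactate exporter MCT4. ALDOC had 124, 114 and 109 in KO2R, 84.4, 79.96 and 82.5 in KO2, 90.8, 93.7 and 84.7 in KO1 and 46.9, 48.5 and 53.9 in WT, a difference of 1.20 ± 0.05 (adjusted p = 1.15e-11). SLC16A3 had 5.84, 5.22 and 5.95 in KO2R, 7.19, 7.77 and 8.54 in KO2, 2.09, 2.06 and 1.92 in KO1 and 0.89, 1.01 and 0.94 in WT, a difference of 1.78 ± 0.07 (adjusted p = 3.28e-12). All 3 edited groups were above WT for both genes, with KO2R the highest for ALDOC and KO2 the highest for SLC16A3.

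A small group of genes separated KO2R from every other group. DDIT4 and ANKRD37 were picked for being called higher in KO2R than in both WT and KO2. Their differences from those groups follow from that choice and are a description, while KO1 had no part in it. DDIT4, a stress-induced inhibitor of mTORC1 that hypoxia also induces, had 26.8, 28.1 and 26.3 in KO2R, 3.09, 3.26 and 3.47 in KO2, 5.74, 5.02 and 5.75 in KO1 and 2.71, 3.17 and 2.94 in WT. The KO2R libraries stood alone, above WT by 2.83 ± 0.06 (adjusted p = 6.1e-15) and above KO2 by 2.72 ± 0.06, while KO2 and WT differed by 0.12 (adjusted p = 0.155). ANKRD37, a target of hypoxia-inducible factor, had 9.47, 11.6 and 9.49 in KO2R, 2.15, 2.81 and 2.38 in KO2, 4.08, 4.74 and 3.49 in KO1 and 2.76, 3.13 and 3.16 in WT. KO2R was again above all other libraries, and above WT by 1.47 ± 0.10 (adjusted p = 1.2e-09).

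The wider hypoxia list had 13 of 20 tested genes higher in KO2R and 5 lower, against 34.4% higher and 35.2% lower over all tested genes. Its median was 0.21, and 0.34 with the length trend removed. P4HA1, a subunit of collagen prolyl hydroxylase, had 22.4, 21.1 and 23.1 in KO2R, 13.2, 13.04 and 13.4 in KO2, 20.8, 19.6 and 20.6 in KO1 and 12.6, 12.1 and 12.6 in WT (0.79 ± 0.05 against WT, adjusted p = 2.93e-10); KO2 was near WT and KO1 near KO2R. PGK1, a glycolytic enzyme and hypoxia target, had 321, 317 and 338 in KO2R, 237, 232 and 246 in KO2, 258, 247 and 258 in KO1 and 239.8, 236 and 244 in WT (0.44 ± 0.03, adjusted p = 1.13e-08), with KO2R above the other 3 groups. Among members chosen after their values were seen, VEGFA, the vascular growth factor, was also higher, by 0.14 ± 0.05 (adjusted p = 0.0229). ADM, adrenomedullin, went the other way and fell by 0.63 (adjusted p = 6.7e-08).

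The genes that led the list of those lower in KO2R than in both KO2 and WT have long transcripts. POLR2A, the largest subunit of RNA polymerase II, had 21.9, 24.4 and 24.1 in KO2R, 49.4, 47.8 and 44.7 in KO2, 30.2, 31.9 and 31.1 in KO1 and 52.4, 51.2 and 49.98 in WT. KO2R was lowest, KO1 was between, and KO2 was close to WT; the difference of KO2R from WT was −1.10 ± 0.05 (adjusted p = 7.05e-12), and −0.91 with the length trend removed. KO2R was also lowest, and KO1 next to it, for DYNC1H1, the dynein heavy chain (−1.13, and −0.76 with the trend removed), PLEC, plectin (−1.24 and −0.90), and RRBP1, a ribosome-binding protein of the endoplasmic reticulum (−1.09 and −0.98). EIF3CL and NBPF14, which the naming rule also picked, share sequence with near-identical copies and are uncertain; EIF3CL values in KO2R were 25.7, 7.8 and 3.95, against 2.21, 6.82 and 0 in WT, and its call did not survive several of the other settings.

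Several of the largest differences between KO2R and WT were of genes almost silent in one of the groups, and many of these were seen in the clones without a vector too. IL36B, an interleukin-1 family cytokine, had 29.4, 31.5 and 25.8 in KO2R and 35.1, 34.5 and 29.7 in KO2, and was listed at 0 in all KO1 and all WT libraries. SH3BGRL, a small thioredoxin-fold protein, had 15.1, 14.6 and 18.1 in KO2R, 15.2, 13.7 and 13.7 in KO2 and 21.5, 19.7 and 20.9 in KO1, and was listed at 0 in all WT libraries. Both genes reached the value of 1 in KO2R and not in WT, so that they had to differ to be tested, and IL36B differed between the clones as well. ROBO1, an axon guidance receptor, had 5.64, 6.56 and 7.03 in KO2R, 12.4, 11.3 and 11.4 in KO2, 2.08, 2.1 and 2.24 in KO1 and 0.02, 0.02 and 0.03 in WT. KO2R lay between the clones and WT was near 0, so ROBO1 also had to differ to be tested.

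Differences graded across the groups were seen for genes that WT cells also expressed. DMKN, dermokine, a secreted protein of epithelia, had 29.9, 29.6 and 25.4 in KO2R, 12.9, 12.4 and 11.9 in KO2, 11.03, 12.8 and 10.4 in KO1 and 1.93, 1.37 and 1.81 in WT. KO2R was highest, above WT by 3.44 ± 0.09 (adjusted p = 1.34e-14) and above KO2 by 1.13 ± 0.09. PECAM1, the adhesion receptor CD31, had 13.5, 13.03 and 14.7 in KO2R, 13.9, 13.9 and 15.6 in KO2, 3.33, 3.05 and 3.19 in KO1 and 1.28, 1.17 and 1.12 in WT, a difference of 2.75 ± 0.06 (adjusted p = 6.1e-15). KO2R and KO2 were alike and KO1 lay between them and WT.

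ASS1, the argininosuccinate synthase of arginine synthesis, had 134, 133 and 131 in KO2R, 96.8, 101 and 95.3 in KO2, 43.2, 44.3 and 43.5 in KO1 and 26.1, 27.2 and 28.9 in WT. The groups stood in that order with no overlap, and KO2R exceeded WT by 2.24 ± 0.04 (adjusted p = 1.38e-16). CRABP2, which carries retinoic acid in the cell, had 45.04, 43.2 and 37.4 in KO2R, 27.5, 26.2 and 25.6 in KO2, 11.1, 9.99 and 11.4 in KO1 and 6.5, 6.75 and 6.43 in WT (2.50 ± 0.06, adjusted p = 1.38e-14), in the same order. MMP23B, a matrix metalloproteinase, differed by 2.45 and SOHLH1, a germ cell transcription factor, by 2.26. KRT81 and KRT86, hair keratins so alike that reads can be split between them, differed by 2.44 and 2.67 and are uncertain. SOHLH1, KRT81 and KRT86 reached the value of 1 in KO2R and not in WT, so they had to differ to be tested.

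On the lower side, GPX1, a glutathione peroxidase that removes hydrogen peroxide, was nearly lost in all edited cells. It had 0.25, 0.29 and 0.25 in KO2R, 0.1, 0.06 and 0.17 in KO2, 0.1, 0.04 and 0.15 in KO1 and 10.9, 11.6 and 11.7 in WT, and KO2R differed from WT by −3.30. TSPAN7, a tetraspanin of the cell surface, had 1.74, 2.12 and 2.5 in KO2R, 1.01, 0.94 and 1.03 in KO2, 1.47, 1.66 and 1.54 in KO1 and 23.5, 24.4 and 23.6 in WT (−3.00 ± 0.08, adjusted p = 1.52e-14). ANXA1, the phospholipid-binding annexin A1, had 0.15, 0.37 and 0.29 in KO2R, 0.31, 0.58 and 0.39 in KO2, 0.76, 0.69 and 1.11 in KO1 and 6.46, 6.16 and 7.47 in WT (a difference of −2.60). For each of these genes all edited libraries were far below all WT libraries; GPX1 and ANXA1 reached the value of 1 in WT and not in KO2R, so no test is given for them.

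KCNS3, a potassium channel subunit, MGAT3, a glycosyltransferase, KHDRBS3, an RNA-binding protein, and DOK5, a docking protein of receptor signalling, were lower in KO2R by log2 values between −2.39 and −2.08. KCNS3, MGAT3 and KHDRBS3 reached the value of 1 in WT and not in KO2R, so they had to differ to be tested. TP53I11 followed the clone of origin: it had 16.5, 16.6 and 14.8 in KO2R, 21.9, 20.9 and 19.98 in KO2, 60.8, 64.7 and 58.2 in KO1 and 49.6, 53.2 and 54.01 in WT (−1.65 ± 0.05, adjusted p = 2.43e-13). KO2R and KO2 were low, while KO1 was slightly above WT. KIAA1217, whose product is a cytoskeleton-associated protein known from skeletal development in the mouse, differed by −1.63, with means of 9.15 in KO2R, 13.1 in KO2, 24.4 in KO1 and 30.4 in WT.

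**Figure D3:**
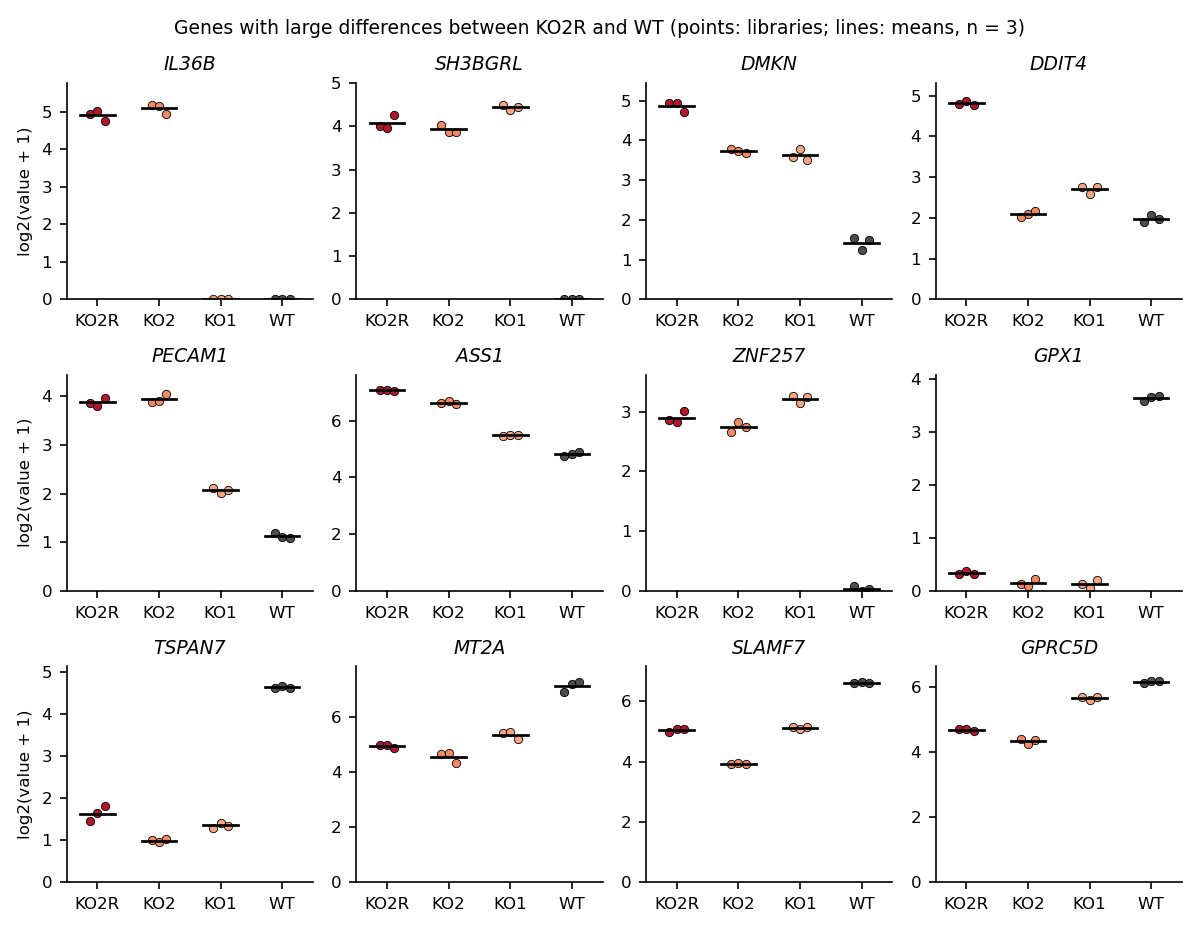
Log2(value + 1) (y axis) of 12 genes with large differences between KO2R and WT, in the 3 libraries each of KO2R, KO2, KO1 and WT (points; lines are group means). KO2R stands apart from all other groups in DDIT4, shares its level with KO2 in IL36B and PECAM1, and is low together with KO2 and KO1 in GPX1 and TSPAN7.

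Most tested metallothioneins, small proteins that bind zinc and copper, were lower in KO2R. MT2A had 30.6, 30.8 and 28.2 in KO2R, 23.9, 24.8 and 19.1 in KO2, 41.2, 43.1 and 35.8 in KO1 and 118, 145 and 152 in WT, so that all edited libraries were far below WT. The difference of KO2R from WT was −2.17 ± 0.10 (adjusted p = 8.87e-12; −2.52 with the length trend removed). MT1A had 14.8, 12.4 and 8.48 in KO2R, 5.67, 6.93 and 4.11 in KO2, 7.77, 7.72 and 8.15 in KO1 and 22.9, 23.1 and 25.4 in WT (−0.97 ± 0.15, adjusted p = 2.39e-05); KO2R was between its parent and WT. MT1E differed by −0.58, and MT1X by −0.06 ± 0.08, which did not pass (adjusted p = 0.464). In the list, which also holds the zinc exporter SLC30A1, 5 of 6 tested genes were lower and none was higher, and the metallothioneins resemble each other in sequence, so reads can be split among them.

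Genes of antioxidant defence and glutathione use went mostly the other way, with 23 of 33 tested genes higher in KO2R and 6 lower. Among all tested genes 34.4% were higher and 35.2% lower. The list median was 0.26 (0.08 with the length trend removed). GPX3, the secreted glutathione peroxidase, had 26.7, 27.4 and 27.1 in KO2R, 29, 28.7 and 26.9 in KO2, 22.5, 21.9 and 20.1 in KO1 and 7.63, 7.46 and 7.72 in WT. All edited groups were well above WT, KO2R by 1.71 ± 0.05 (adjusted p = 4.24e-14), against the direction of GPX1. PRDX4, the peroxiredoxin of the endoplasmic reticulum, had 199.6, 194 and 199 in KO2R, 134, 131 and 131 in KO2, 149.7, 152 and 149.7 in KO1 and 93.5, 94.6 and 103 in WT (1.02 ± 0.04, adjusted p = 6.24e-13; 0.69 with the trend removed), with KO2R the highest group.

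Genes of plasma cell identity were mixed, and several surface markers of myeloma were lower in KO2R. SLAMF7, the surface receptor bound by the antibody elotuzumab, had 30.5, 32.5 and 33.05 in KO2R, 14.3, 14.7 and 13.96 in KO2, 34.1, 32.9 and 34.1 in KO1 and 95.2, 97.5 and 97.1 in WT. All edited groups were below WT and KO2 was lowest; KO2R differed from WT by −1.56 ± 0.04 (adjusted p = 1.34e-14). GPRC5D, an orphan receptor of plasma cells and another target of myeloma antibodies, had 25.4, 25.2 and 24.1 in KO2R, 20.4, 18.3 and 19.99 in KO2, 51.3, 47.7 and 50.8 in KO1 and 68.7, 71.7 and 71.6 in WT. KO2R was near KO2, KO1 was between them and WT, and the difference of KO2R from WT was −1.47 ± 0.05 (adjusted p = 1.32e-13).

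SDC1, syndecan-1 or CD138, the defining surface marker of plasma cells, went up. It had 304, 316 and 302 in KO2R, 298, 290.3 and 287 in KO2, 362, 377 and 366 in KO1 and 164, 176 and 173 in WT, with all edited groups above WT and KO2R by 0.84 ± 0.03 (adjusted p = 3.28e-12). NCAM1, the adhesion molecule CD56 that many myelomas carry, had 0.05, 0.04 and 0.1 in KO2R, 0.02, 0.04 and 0.02 in KO2, 0.02, 0.02 and 0.01 in KO1 and 3.44, 3.18 and 2.84 in WT (a difference of −1.96). It reached a value of 1 only in WT and had to differ to be tested, so no test is given for it. IRF4, the transcription factor on which myeloma cells depend, had 164, 173 and 174 in KO2R, 194, 194 and 189 in KO2, 192, 194 and 195 in KO1 and 264, 257 and 245 in WT (−0.58 ± 0.03, adjusted p = 3.01e-10). All edited libraries were below all WT libraries.

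In the whole list of 23 tested plasma cell genes 6 were higher and 15 lower, against 34.4% higher and 35.2% lower over all tested genes. The median was −0.29 (−0.37 with the length trend removed). TNFRSF17, the receptor BCMA, fell by 0.39 (adjusted p = 1.01e-06), and PRDM1, the factor Blimp-1, by 0.29 (adjusted p = 5.19e-06). CD38 differed by 0.05 ± 0.04 (adjusted p = 0.235). XBP1, the factor of the secretory programme, was higher by 0.11 ± 0.03 (adjusted p = 0.00305) but lower by 0.10 with quantile scaling and by 0.02 with the length trend removed. Summed over all 30 genes of the list with values, tested or not, the level was 5338 to 5377 in KO2R and 4037 to 4080 in KO2. It was 5440 to 5537 in KO1 and 5613 to 5766 in WT, so plasma cell genes were expressed in every group.

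Most markers of other cell types were near 0, with PECAM1 and CD4 among the exceptions. The summed values of 10 myeloid markers were 1.29 to 2.33 in KO2R and 1.04 to 1.2 in WT, and those of 5 erythroid and megakaryocyte markers 0.7 to 0.81 in KO2R and 0.54 to 0.83 in WT, with no member at 1 or more in any library of either list. The 8 stromal and endothelial markers summed to 13.7 to 15.3 in KO2R, 14.5 to 16.4 in KO2, 3.31 to 3.67 in KO1 and 1.81 to 1.92 in WT, and PECAM1 was the one member at 1 or more. The other 7 members of that list stayed below 1. The 7 epithelial markers summed to 12.4 to 13.1 in KO2R and 5.6 to 6.54 in WT, with 3 at 1 or more. The 9 B cell markers summed to 7.88 to 9.1 in KO2R and 11.5 to 12.8 in WT, and the 10 T and NK cell markers to 152.8 to 154.4 in KO2R and 166.6 to 168.1 in WT, with CD4 giving nearly the whole sum. Their part in the results was not tested. In bulk RNA a lower share of cells that express a gene and less RNA per cell cannot be told apart.

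Several signalling and survival genes were also lower in KO2R. Of 21 tested NF-kB genes 13 were lower and 5 higher, against 35.2% lower and 34.4% higher over all tested genes. The median was −0.22 (−0.32 with the length trend removed). RELB, a subunit of the non-canonical NF-kB pathway, had 3.61, 3.23 and 3.17 in KO2R, 3.23, 2.64 and 3.28 in KO2, 5.78, 6.33 and 6.17 in KO1 and 9.5, 10.2 and 10.2 in WT (−1.34 ± 0.07, adjusted p = 8.97e-11), with KO2R and KO2 lowest and KO1 between. TNFAIP3, the NF-kB target and inhibitor A20, had 1.04, 1 and 1.22 in KO2R, 1.09, 1 and 0.93 in KO2, 1.7, 1.73 and 1.59 in KO1 and 3.88, 3.93 and 4.01 in WT (−1.24 ± 0.07, adjusted p = 1.4e-10). REL, the subunit c-Rel, differed by −1.07 ± 0.09 (adjusted p = 1.27e-08).

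BCL2, the anti-apoptotic protein, had 1.36, 1.96 and 1.96 in KO2R, 1.57, 1.43 and 1.67 in KO2, 5.01, 4.79 and 5.37 in KO1 and 5.39, 4.92 and 5.04 in WT. KO2R kept the low level of its parent KO2 while KO1 overlapped WT (a difference of KO1 from WT of −0.01 ± 0.08, adjusted p = 0.896); KO2R was below WT with a difference of −1.16 ± 0.08 (adjusted p = 4.17e-09). CDKN1A, the cell cycle inhibitor p21, had 15.4, 14.8 and 13.1 in KO2R, 14.4, 14.5 and 14.3 in KO2, 27.6, 30.2 and 28.3 in KO1 and 34.8, 38.8 and 37.8 in WT (−1.31 ± 0.06, adjusted p = 7.05e-12), again with KO2R at the level of KO2. CCND2, cyclin D2, fell by 0.85 (adjusted p = 6.54e-12) and MYC by 0.17 (adjusted p = 0.000281).

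Genes of MHC class I presentation were mixed. HLA-C, which presents peptides, had 87.6, 82.4 and 83.9 in KO2R, 81.6, 81.9 and 81.7 in KO2, 67.9, 66.5 and 69.6 in KO1 and 37.9, 41.6 and 40.3 in WT (1.06 ± 0.04, adjusted p = 1.01e-12), with all edited groups above WT; its reads can be shared with other class I genes. B2M, the light chain, was higher by 0.44 ± 0.03 (adjusted p = 1.19e-09). TAP1, a subunit of the peptide transporter, fell by 0.69 (adjusted p = 4.37e-10). Of 16 tested genes of this list 8 were higher and 5 lower, with a median of 0.11. All tested genes had 34.4% higher and 35.2% lower, the shares to set beside this list and the next. Of 29 tested interferon-stimulated genes 14 were higher and 8 lower, with a median of 0.12; BST2, which tethers virus particles, was higher by 0.55 ± 0.04 (0.23 with the length trend removed), and SAMD9L, an antiviral restriction factor, fell by 1.13 (adjusted p = 6.29e-10).

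Ribosomal protein and oxidative phosphorylation genes, most of which have short transcripts, were higher in KO2R by small amounts. Of 76 tested ribosomal protein genes 69 were higher and 1 lower, with a median of 0.43; with the length trend removed 56 were higher, 9 lower and the median was 0.26, and quantile scaling left 46 higher, 14 lower and a median of 0.12. These genes have many processed pseudogenes that can share their reads. Of 76 tested oxidative phosphorylation genes 67 were higher and 2 lower, with a median of 0.42; with the length trend removed 51 were higher, 5 lower and the median was 0.18. For genes of ribosome biogenesis, 24 of 41 were lower and 11 higher, against 35.2% and 34.4% of all tested genes. Their median was −0.11.

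**Figure D4:**
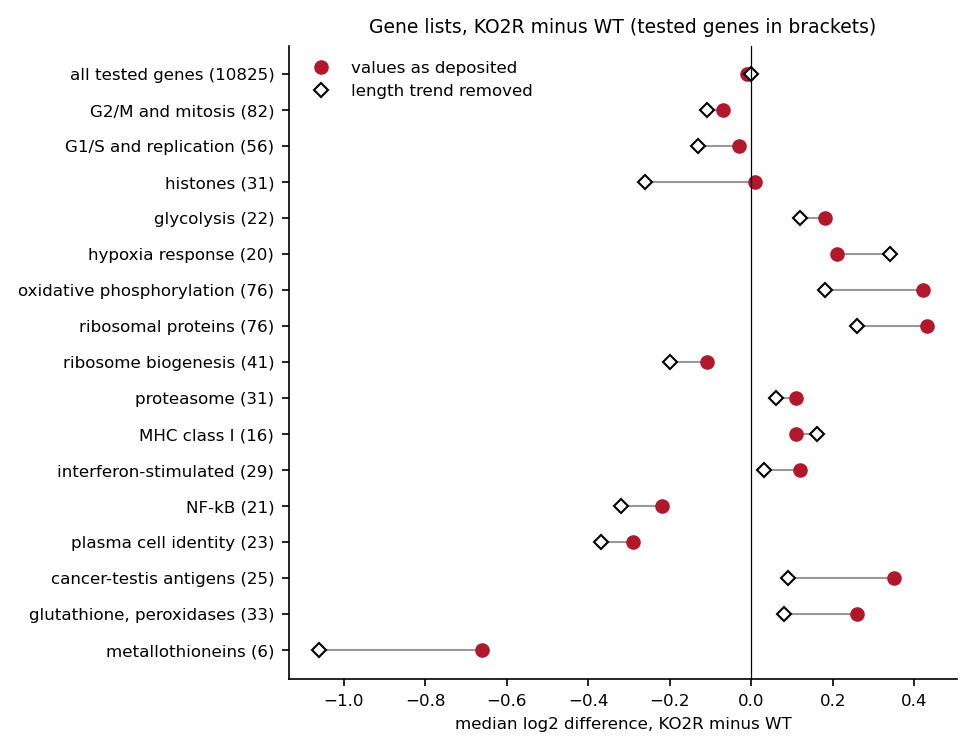
Median log2(value + 1) difference of KO2R from WT (x axis) for 16 gene lists and for all tested genes (rows; tested genes in brackets), from values as deposited (red circles) and with the length trend removed (open diamonds). Metallothioneins lie lowest, at −0.66 as deposited; ribosomal protein genes lie highest as deposited, at 0.43, and hypoxia genes with the trend removed, at 0.34.

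One stretch of chromosome 1 held 48 of the 135 genes that were lower in KO2R by 2-fold. With the length trend removed, the running median of 21 neighbouring tested genes was beyond −0.25 over a run between FAM72C and FAM129A, a run chosen after the values were seen, so its values are a description. The run held 296 of the 1121 tested genes of chromosome 1. In it 252 genes were lower in KO2R (85.1%) and 13 higher (4.39%), against 35.3% lower among the other 825 tested genes of the chromosome. The median difference was −0.55, with quartiles of −0.83 and −0.31, against −0.01 on the rest of chromosome 1. Outside the run, 4 genes of the chromosome were lower by 2-fold.

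The run was present in each edited group. Set against the WT mean, the median of its genes was −0.588, −0.555 and −0.539 in the KO2R libraries, −0.554, −0.572 and −0.573 in KO2, −0.399, −0.407 and −0.397 in KO1, and between −0.007 and 0.010 in WT. The WT values are small by construction, being set against their own mean. All edited groups share that WT reference, so their differences are not independent of each other. The median difference of KO2R from KO2 in the run was −0.02. By the same rule the run of KO2 against WT reached between NBPF20 and TPR and held 297 genes. That of KO1 reached between PIAS3 and RC3H1 and held 252 genes with a median of −0.41. KO1 also had a run above WT on chromosome 1, between UBE2J2 and NOL9, with 49 genes and a median of 0.36. Of the 296 genes of the KO2R run, 251 were tested in OPM2 and had a median of −0.03 in OPM2 KO1R against OPM2 WT. DNA copy number was not measured here, and its part in the run was not tested.

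The run contains several genes described above or known in myeloma. SLAMF7 lies in it, as does MCL1, an anti-apoptotic protein, which had 68.3, 71.1 and 71.6 in KO2R, 82.7, 81.4 and 81.8 in KO2, 91.4, 89.01 and 92.7 in KO1 and 126, 122 and 121 in WT (−0.80 ± 0.03, adjusted p = 4.6e-12). IL6R and ADAR were picked because of their values. IL6R, the receptor of the myeloma growth factor interleukin-6, had 26.5, 30.7 and 28.8 in KO2R, 36.6, 35.5 and 36.2 in KO2, 27.1, 27.3 and 27.2 in KO1 and 75.3, 72.5 and 75.3 in WT (−1.35 ± 0.05, adjusted p = 3.94e-13). ADAR, which edits adenosine in double-stranded RNA, had 37.3, 41.2 and 42.1 in KO2R, 62.3, 59.4 and 58.6 in KO2, 55.1, 57.4 and 57.3 in KO1 and 111, 104 and 101 in WT (−1.37 ± 0.05, adjusted p = 5.35e-13). WT was the highest group for all of these, and their differences exceeded the median of the run. METTL13, C1orf226 and PRRC2C, among the 14 largest falls, also lie on chromosome 1. Without the members in the run, the plasma cell list had 12 of 20 genes lower and a median of −0.26.

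**Figure D5:**
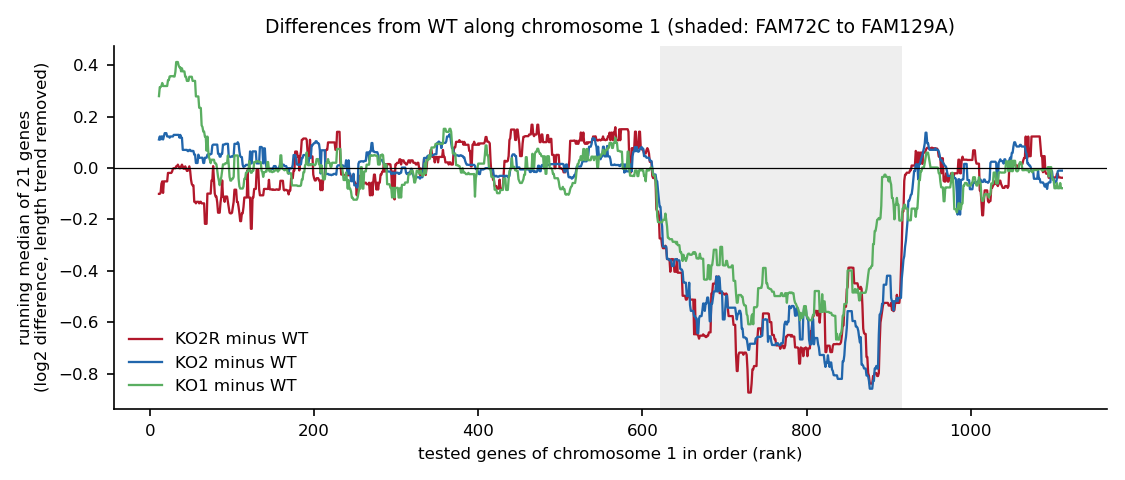
Running median over 21 neighbouring tested genes of the log2(value + 1) difference from WT with the length trend removed (y axis), along chromosome 1 in gene order (x axis, rank), for KO2R, KO2 and KO1. In the shaded run between FAM72C and FAM129A all 3 lines lie below 0, KO2R and KO2 together and KO1 less far. Outside it the KO2R line stays closer to 0, and the KO1 line lies above 0 between UBE2J2 and NOL9.

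A run of zinc finger genes on chromosome 19 went the other way. ZNF257, a KRAB zinc finger gene, had 6.28, 6.08 and 7.04 in KO2R, 5.3, 6.07 and 5.69 in KO2, 8.55, 7.84 and 8.46 in KO1 and 0.06, 0 and 0.02 in WT (a difference of 2.86 between KO2R and WT), and the nearby ZNF100 had 6.88, 7.41 and 8.19 in KO2R, 6.26, 6.68 and 6.54 in KO2, 6.74, 5.65 and 6.68 in KO1 and 0.16, 0.2 and 0.05 in WT. Both were almost silent in WT and expressed in every edited group, and no test is given, since neither reached the value of 1 in WT. The 28 tested genes between ZNF14 and C19orf12 had a median difference of 0.49. The run was chosen after the values were seen, so this median is a description. ZNF43 and ZNF208 in it were also almost silent in WT, with means of 0.05 and 0.003, and had to differ to be tested. By the rule used for chromosome 1, KO2 and KO1 against WT gave no run on chromosome 19. Genes of the run were still higher in those clones, so their rise was not particular to KO2R. ZNF208 exceeded WT by 2.37 in KO2 and 2.48 in KO1, and ZNF682, which WT expressed, by 0.55 and 0.46. Some were not higher, such as ZNF738, at −0.01 and −0.13. ZNF66 and ZNF254 in the same run were lower in KO2R, by log2 differences of −0.57 and −0.38. The promoter of ZNF257 (RefSeq, GRCh38.p14, plus strand, 250 bases before to 50 after the start, CG pairs in capitals) is shown because its gene was near 0 in WT alone.
ZNF257, chr19:22052234-22052533: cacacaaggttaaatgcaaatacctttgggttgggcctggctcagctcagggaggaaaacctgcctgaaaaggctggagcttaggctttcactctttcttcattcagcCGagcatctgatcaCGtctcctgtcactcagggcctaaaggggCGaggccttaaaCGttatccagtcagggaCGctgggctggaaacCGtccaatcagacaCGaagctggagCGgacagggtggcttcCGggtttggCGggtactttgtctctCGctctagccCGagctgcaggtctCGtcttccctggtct
It has 13 CG pairs, against a median of 27 in the promoters of tested genes, 11.9% of which have fewer. Low numbers were also found at genes of the run that WT expressed: the promoter of ZNF66, a gene with a mean of 27.2 in WT, has 9 CG pairs, and that of ZNF254 has 10. DNA methylation was not measured.

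As a description of genes back at the unedited level, those called in KO2 against WT and within 0.25 of WT in KO2R were ranked by the size of the KO2 difference. Those lower in KO2 were led by SLC2A4, SLC2A1, PLK1, FOXM1 and CDC25B, described above, and DPM3, a subunit of dolichol-phosphate mannose synthase. Those higher in KO2 were led by PALM3, FRMD4A, CEP128, GALNS, ZNF37A and CASTOR2. PALM3, a paralemmin of the plasma membrane, had 7.57, 7.96 and 6.6 in KO2R, 14.3, 15.1 and 13.5 in KO2, 12.3, 12.8 and 10.5 in KO1 and 6.48, 7.86 and 7.82 in WT. The KO2R and WT libraries overlapped and the clones without a vector were above both. With the length trend removed, 4 of these genes lay outside the limit of 0.25: DPM3 at −0.42, CASTOR2 at −0.33, FRMD4A at 0.30 and GALNS at 0.35. All were picked on these values, so that their closeness to WT is a description; the tests given above for SLC2A1, PLK1, FOXM1 and CDC25B do not bear on it.

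The most similar comparison, OPM2 KO1R against OPM2 WT, gave fewer calls. There 1482 of 10021 tested genes passed (14.8%), 95 of them by 2-fold (0.948%), 0.659% of tested genes higher and 0.289% lower, and FOXM1 in FPKM was 262.9, 278.0 and 291.7 in KO1R, against 175.3, 175.6 and 176.8 in WT, so KO1R stood above the unedited level. The OPM2 and Delta47 tables were normalized separately, and no test was made across them. Among 9305 genes tested in both lines, the differences had a Pearson r across genes of 0.219, and of 0.139 with the Delta47 length trend removed; genes are not independent replicates. Of those called by 2-fold, 136 in Delta47 and 63 in OPM2, 2 were higher and 2 lower in both, which is 2.94% of the Delta47 and 6.35% of the OPM2 list.

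The shared genes were TSPAN7 and SVIL, lower in both lines, and ACAP1 and IGFBP7, higher in both. TSPAN7 had 20.47, 23.07 and 21.04 FPKM in OPM2 KO1R, against 104.7, 108.0 and 109.0 FPKM in OPM2 WT, a log2 difference of −2.27 beside −3.00 in Delta47 KO2R. SVIL, supervillin, an actin-binding protein, had 5.76, 6.48 and 6.1 in Delta47 KO2R and 22.7, 20.3 and 20.4 in Delta47 WT, and 5.66, 6.44 and 6.65 FPKM in OPM2 KO1R, against 13.5, 14.1 and 13.7 FPKM in OPM2 WT. ACAP1, a regulator of endosome recycling chosen after its values were seen, had 28.01, 26.8 and 26.3 in Delta47 KO2R and 7.66, 8.18 and 7.86 in Delta47 WT, and 6.43, 6.45 and 6.37 FPKM in OPM2 KO1R, against 1.65, 2.46 and 2.4 FPKM in OPM2 WT. In each of these cases the libraries of the vector group and of WT were fully apart. That separation largely follows from choosing genes called by 2-fold in both lines and adds no support. MT2A went in opposite directions, higher by 0.96 in OPM2 KO1R and lower in Delta47 KO2R, and SLAMF7 differed by 0.20 in OPM2 KO1R (adjusted p = 0.603).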

How the data were processed

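Polyadenylated RNA was read as paired ends of 100 bases on a DNBSEQ instrument, per the labels' protocols. The submitters' processing notes name the genome build hg19; the sources used here name no aligner or counter. The Delta47 table was deposited with no unit, so its values were treated as a signal, called the authors' expression value. The OPM2 values are FPKM, per the file headers. Of 9219 low values of 1214 sparse genes, 18.3% were whole multiples of the smallest value of their gene within a tolerance of 0.1, against 20% for evenly spread values, so reads could not be recovered and the depth is unknown. Column totals were 607461 to 633778 in KO2R and 534185 to 552748 in WT and are not read counts. Each library listed 2272 to 2548 genes at 0, and no libraries were identical.

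KO2R columns carry no clone number, and their letter R matched them to the KO2R titles; 3 value columns whose name fits no single sample were not used. Values were taken as log2(value + 1). A limma-trend model (limma 3.58.1, R 4.3.3) was fitted to the 12 libraries of KO2R, KO2, KO1 and WT with moderated two-sided tests and adjustment by Benjamini-Hochberg over all 10825 tested genes, called below 0.05. The length trend was removed in each library by a loess curve (span 0.5, degree 1). The curve was of each gene's deviation from its mean across the libraries on the log2 length of its longest GENCODE 29 transcript. The fit was tested on simulated data. Replicate numbers did not pair the samples: correlations of same-numbered KO2R and WT deviations were −0.243, 0.0605 and −0.172.

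Named genes were FOXM1; the 14 largest rises and 14 largest falls in KO2R against WT without overlap and with a group mean of at least 5; 6 each way called in the same direction against WT and KO2; 6 each way back within 0.25 of WT; up to 4 members of each list by adjusted p; and fixed cell cycle, glucose, plasma cell and survival genes. The members and lists were chosen with earlier results of these data known. Lists are described by counts and medians, and no set test was made. Other settings tried were other pseudocounts, filters and scalings, a replicate block, the 6 compared libraries alone, no intensity trend, length removal and each replicate left out. Promoters are from RefSeq (GRCh38.p14).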

Additional observations from a re-analysis of the deposited data

How the results depend on the processing

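Of the 176 named genes, all kept direction and call with the replicate block, 174 with no filter, median scaling or no intensity trend, 175 with pseudocounts of 0.1 or 5 or with the 6 compared libraries alone, 170 with quantile scaling and 159 with the length trend removed. Named genes that reversed were HSPA8 (−0.12) and XBP1 (−0.10) with quantile scaling, and ZNF37A (0.14), DPM3 (−0.42), KLRD1 (0.33) and XBP1 (−0.02) with the length trend removed. Genes higher and lower by 2-fold or more numbered 150 and 245 with a pseudocount of 0.1 and 35 and 40 with a pseudocount of 5, which shrinks low genes by construction; with a minimum value of 5 fewer genes were tested and 89 were lower by 2-fold. With quantile scaling 9 glycolysis genes were higher; the cause was not tested. The median of the chromosome 1 run was −0.61 and −0.40 with pseudocounts of 0.1 and 5, −0.58 with quantile scaling, −0.52 with median scaling and −0.58 with the length trend removed. The Pearson r of KO2R minus WT with KO2 minus KO1 was 0.000 and −0.212 with pseudocounts of 0.1 and 5, −0.179 with the stricter filter and 0.025 with the length trend removed. With the replicate block 7502 genes were called, and the block changed no other call described.

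Leaving out each replicate of KO2R or WT in turn gave 7075 to 7329 genes called, 3491 to 3601 higher and 3547 to 3812 lower, 83 to 90 higher and 132 to 147 lower by 2-fold, FOXM1 at 0.14 to 0.19, a chromosome 1 run at −0.57 to −0.55 and an r of −0.124 to −0.090. List counts were 24 to 30 (mitosis, higher), 36 to 38 (mitosis, lower), 66 to 67 (oxidative phosphorylation), 64 to 70 (ribosomal proteins), 13 to 15 (glycolysis), 5 (metallothioneins) and 15 (plasma cell). Depth is unknown, and 3 libraries a group limit the precision.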

Other observations

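Some values belong to none of the comparisons above. Cancer-testis antigens, genes of the germ line that many myelomas express, had 17 of 25 tested genes higher in KO2R than in WT and 3 lower, with a median of 0.35, and of 0.09 with the length trend removed. In the lists of heat shock chaperones, 4 of 30 genes were higher and 12 lower; of DNA methylation and Polycomb genes, 3 of 22 were higher and 11 lower; of cholesterol synthesis genes, 8 of 24 were higher and 12 lower; and of proteasome subunits, 20 of 31 were higher and 8 lower. With the length trend removed, 7 heat shock chaperones were higher and 18 lower, and 5 cholesterol synthesis genes were higher and 12 lower. After that removal 4 DNA methylation and Polycomb genes were higher and 8 lower, and 14 proteasome subunits were higher and 12 lower. Quantile scaling gave 13 higher and 9 lower proteasome subunits, with a median of 0.00, against 0.11 before. Over all tested genes 34.4% were higher and 35.2% lower, and 33.6% and 33.3% with the length trend removed. Replication-dependent histone genes had 10 of 31 higher and 7 lower, and outside the chromosome 1 run 9 of 22 higher and 2 lower. Copies with equal means count separately in this list, such as HIST2H2AA3 and HIST2H2AA4, each 26.11 in KO2R and 35.12 in WT. With the length trend removed the direction of the histone list turned, with 4 of 31 higher and 14 lower and a median of −0.26, against 0.01 before.

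The differences of KO2R from WT and of KO2 from KO1 share no library. Across 10825 genes their Pearson r was −0.11 and their Spearman rho −0.316, and with the length trend removed 0.0253 and −0.181. A run of 36 tested genes on chromosome 8 between MROH6 and KIFC2 had a median of −0.31 in KO2R against WT. The clones without a vector had lower runs elsewhere on this chromosome. Among them were 34 genes between TRIQK and PABPC1 in KO2 (−0.30) and 28 between RB1CC1 and SGK3 in KO1 (−0.35). These runs too were chosen on their values, so their medians are a description. Over all 373 tested genes of chromosome 8 the median was −0.11 in KO2R, −0.12 in KO2 and −0.13 in KO1.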
